A study of Mus musculus with 19 samples.

Results

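The comparison described here sets the livers of 6 mice whose label reads Homo at Pkd1 against those of 13 mice with at least 1 unmutated allele, 7 labelled WT and 6 labelled Het, so that all 19 libraries of the series take part. Mice were put in these groups by the genotype in their label alone, and no measured value was used. The pooling follows a recessive model, in which a gene changes where both alleles are mutant and not where 1 is. Every mouse in all 3 genotypes had received AAV-Cre, in which an adeno-associated virus delivers the recombinase Cre, and had been kept for 3 months on Western diet plus carbon tetrachloride (CCl4), a model of non-alcoholic steatohepatitis (NASH) that joins a rich diet with a liver toxin. The series calls the mice littermates. Its labels give no sex, age or litter, no promoter for Cre and no account of which part of Pkd1 is lost, and its title speaks of mutant clones, so a library may also hold cells that Cre did not reach. Each mouse has its own number in its label, from 1 to 20, which is used here to name it.

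Pkd1 encodes polycystin-1, a large membrane protein that works with the channel polycystin-2 in the primary cilium and at cell contacts. Loss of both copies in a tubule or duct cell is the classical route to a cyst, because 1 working copy is held to be enough for most cells. In the liver, the cells that form cysts are those of the bile ducts, which carry keratins 7 and 19, rest on a laminin-rich basement membrane and move chloride and water into bile, whereas hepatocytes carry keratins 8 and 18 only.

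Livers of Homo mice held more RNA of keratins 7 and 19 and of other bile duct genes, and less RNA of a group of genes on chromosome 17. Of 16463 genes tested, 70 passed an adjusted p of 0.05, or 0.425% (edgeR's quasi-likelihood test with Benjamini-Hochberg adjustment, as for every adjusted p below unless another tool is named). Of these, 58 were higher in Homo (0.352% of tested genes) and 12 were lower (0.0729%). All but 1 of the 12 lower genes share chromosome 17 with Pkd1, and 50 of the 58 higher genes lie on other chromosomes. Without adjustment, 1534 genes lay under a p of 0.05 (9.32%), 801 higher (4.87%) and 733 lower (4.45%). DESeq2 called 158 genes, of which 71.5% were higher, against 82.9% of the 70. The median log2 fold change over all tested genes was -0.00, with 8211 of 16463 above 0.

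Library totals ran from 25847075 to 42142903 counts. Pkd1 (chromosome 17, 24548689 to 24596514, GRCm38) was not called: the 13 WT and Het mice lay between 328 and 451 CPM (a gene's counts scaled to a common library size), with a median of 411, and the 6 Homo mice between 333 and 380, with a median of 354. The groups overlapped, and the log2 fold change was -0.16 ± 0.07 (SE, as after every fold change below; adjusted p = 0.47). The counts span all exons, also any that the mutation leaves intact, and Tsc2 overlaps the end of Pkd1, so this value does not check the labels. Pkd2, which encodes polycystin-2, was at 0.34 ± 0.22 (adjusted p = 0.664). Of 17 tested polycystins and other polycystic liver disease genes none was called, 6 lay above 0 and the median was -0.04.

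Promoter stretches of 4 higher genes are shown first because they share a motif of 8 letters. Promoters from RefSeq (GRCm38.p6, 250 bases before each start) were at hand for 36 of the 58 higher genes. The motif CCCCACCC, which KLF factors such as the higher gene Klf5 can bind, was searched on both strands and found in 9 of the 36, or 25%, against 10.3% of the 27025 promoters in the table and 13.1% of the 12101 that belong to tested genes. Capitals mark the motif as it reads on the strand of the gene, so that GGGTGGGG is the motif on the opposite strand. The 4 genes were chosen after their values and motifs were seen.
Gabrp, chr11:33578968-33579027, minus strand: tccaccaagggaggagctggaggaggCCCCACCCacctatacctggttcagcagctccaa
Arhgef28, chr13:98206212-98206271, minus strand: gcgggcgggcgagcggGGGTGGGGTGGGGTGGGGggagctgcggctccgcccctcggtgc
Sema3c, chr5:17574570-17574629, plus strand: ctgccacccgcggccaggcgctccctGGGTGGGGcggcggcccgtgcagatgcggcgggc
Sema5a, chr15:32244659-32244718, plus strand: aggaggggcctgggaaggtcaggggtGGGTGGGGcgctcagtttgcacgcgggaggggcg
In Arhgef28 the motif stands in overlapping copies, and in the other 3 it stands once in the stretch shown. The same motif was in 2 of the 8 promoters at hand for lower genes (25%), so its share did not set higher genes apart from lower ones. GGAATG, the core of TEAD sites, was in 4 of the 36 (11.1%) against 14.4% of all promoters. The interferon-stimulated response element was in 0 of the 36 against 3.46% of all promoters. It was in 14 of the 29 promoters at hand for the list of interferon-stimulated genes (48.3%). For Usp18, a called gene of that list, no promoter was at hand. AACCGGTT, a site of grainyhead factors, was in 0 of the 36 against 0.137% of all promoters. A match is a description of letters and not of binding, and no match says only that these letters are not in this window.

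Bile duct keratins were higher in every Homo liver than in any other. Krt7 (chromosome 15, 101412403 to 101427806) was between 0.0755 and 0.583 CPM in the 13 WT and Het mice, with a median of 0.278, and between 1.03 and 4.19 in the 6 Homo mice, with a median of 2.25. No Homo mouse overlapped the others, and the log2 fold change was 2.90 ± 0.32 (adjusted p = 6.37e-05). Krt19 (chromosome 11, 100140810 to 100145926) ran from 0.293 to 2.99 CPM in the pool (median 0.931) and from 3.36 to 10.1 in Homo (median 6.63), again with no overlap (2.71 ± 0.33, adjusted p = 0.000184). Krt8 and Krt18, the keratins that hepatocytes also carry, were at -0.07 ± 0.13 and 0.02 ± 0.13 and were not called. The Krt7 locus shares an exon stretch with Gm671 on the opposite strand, and without a stated strand setting their reads cannot be told apart.

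Other called genes of epithelia included Muc1, Tspan8, Cd24a and Epcam of the bile duct list. Muc1, a mucin of the luminal surface, lay between 0.469 and 3.02 CPM in the pool (median 1.12) and between 2.42 and 7.79 in Homo (median 3.74; 1.83 ± 0.30, adjusted p = 0.00328). Its groups overlapped, as did those of the tetraspanin Tspan8 (2.22 ± 0.33) and of Cd24a, a surface protein of progenitor and duct cells (1.61 ± 0.24; adjusted p = 0.00159 for each). Epcam, the adhesion protein used to sort duct cells, went from 0.331 to 0.881 CPM in the pool (median 0.532) to 0.984 to 1.78 in Homo (median 1.16) without overlap (1.15 ± 0.23, adjusted p = 0.0219). Spint1, an inhibitor of surface proteases of epithelia, outside that list, rose by 1.70 ± 0.34, and Cyp2s1, a cytochrome P450 of epithelia outside the hepatocyte, by 1.75 ± 0.35 (adjusted p = 0.0219 and 0.0232).

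Over the bile duct list, 8 of 27 tested members were called higher and none lower (Krt7, Krt19, Epcam, Muc1, Tspan8, Cd24a, Kcne3 and Itgb4). Of the 27, 21 lay above 0, and the median was 0.70. Over all genes the median was -0.00, with 49.9% above 0 and 0.425% called. These shares are also the background for each list count below. By arm, the list median was 0.62 for Homo minus WT, 0.87 for Homo minus Het and -0.27 for Het minus WT. The summed level of the list was 397 to 561 CPM in WT, 411 to 465 in Het and 518 to 636 in Homo, so its highest WT mouse lay above the lowest Homo mouse. In bulk tissue, more cells of a type and more RNA per cell cannot be told apart. Several defining members did not pass. Spp1 (osteopontin) was at 0.70 ± 0.19 (adjusted p = 0.167), Ehf, an epithelial transcription factor, at 1.10 ± 0.27 (adjusted p = 0.101) and Pkhd1, the gene of recessive polycystic disease, at 0.57 ± 0.18 (adjusted p = 0.264). Cftr, the chloride channel of duct cells, was at -0.03 ± 0.64, Anxa4 at -0.00 ± 0.07 and the water channel Aqp1 at -0.07 ± 0.06.

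Mesothelium, the lining of the liver surface, also carries Krt7 and Krt19, and its markers were read beside them. Of 9 tested, only these 2 were called. Msln (mesothelin) was at 1.69 ± 0.42 (adjusted p = 0.105), and Wt1, Upk3b, Upk1b, Lrrn4, Gpm6a and Muc16 lay between -0.15 and 0.15. The list summed to 9.85 to 41.8 CPM in WT, 17.0 to 47.7 in Het and 28.8 to 44.3 in Homo, so the groups overlapped.

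**Figure D1:**
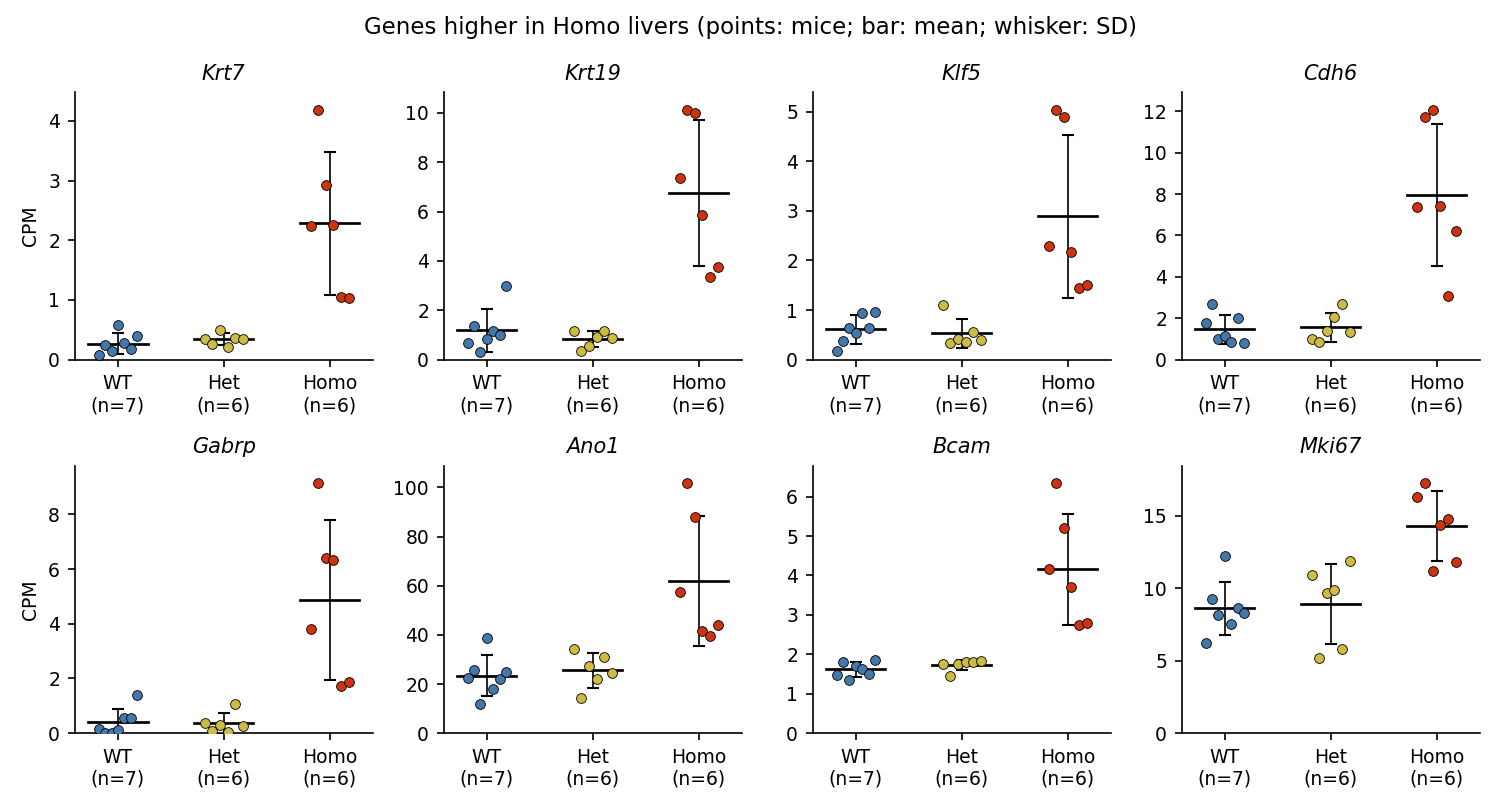
Level of 8 genes in each mouse (CPM, linear axes from 0) for 7 WT, 6 Het and 6 Homo mice, with group mean and SD. All 6 Homo mice lie above the 13 others for each gene except Mki67, where the lowest Homo mouse, at 11.2 CPM, lies under the highest WT mouse, at 12.2.

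Among transcription factors of ducts and progenitors, 1 of 16 tested members was called. Klf5, a zinc-finger factor of dividing epithelia (chromosome 14, 99298691 to 99313412), was between 0.176 and 1.10 CPM in the pool (median 0.528) and between 1.45 and 5.04 in Homo (median 2.23). The groups did not overlap, and the log2 fold change was 2.33 ± 0.32 (adjusted p = 0.000854). Sox9, a better known duct factor, was at 0.04 ± 0.21 and was not called. Sox4, which acts with Sox9 in duct formation, was at 0.50 ± 0.18 (adjusted p = 0.335). The list as a whole had 15 of 16 members above 0, with a median of 0.16. Outside the list, Glis2, a zinc-finger protein linked to cilia and kidney cysts, rose by 0.86 ± 0.19 (adjusted p = 0.0431), and the ETS factor Elf4 by 0.59 ± 0.13 (adjusted p = 0.0475). With 1 mouse left out, the call of Glis2 ended in 12 of 19 fits and that of Elf4 in 15, and limma-voom did not call Glis2 (adjusted p = 0.062).

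Genes of the basement membrane and of adhesion are described next. Cdh6, a cadherin of renal tubule and duct cells, was between 0.807 and 2.69 CPM in the pool (median 1.32) and between 3.06 and 12.1 in Homo (median 7.38), with no overlap (2.40 ± 0.27, adjusted p = 8.24e-05). Bcam, a receptor for laminin alpha 5, was between 1.35 and 1.85 CPM in the pool (median 1.74) and between 2.74 and 6.34 in Homo (median 3.94). It too did not overlap (1.31 ± 0.14, adjusted p = 6.37e-05). Its ligand chain Lama5 rose by 0.93 ± 0.15 (adjusted p = 0.00371), from a pool median of 11.7 CPM to a Homo median of 23.2. The integrin subunit Itgb4, which ties epithelia to laminin at hemidesmosomes, rose by 0.96 ± 0.16 (adjusted p = 0.00415). For both of these genes 1 or more Homo mice overlapped the pool. The list of laminins, integrins and junction genes had 3 of 18 tested members called higher (Cdh6, Lama5 and Itgb4), none lower, 16 above 0 and a median of 0.30.

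Other called genes, in no list fixed for them, act at the cell cortex or as scaffolds. Ezr (ezrin), which joins microvilli to actin, went from 2.21 to 5.18 CPM in the pool (median 4.25) to 5.76 to 9.20 in Homo (median 8.26) without overlap (0.91 ± 0.14, adjusted p = 0.00196). Ezr shares an exon stretch with Sytl3 on the opposite strand. Misp, an actin-bundling protein, and Myo15b, an unconventional myosin, rose by 1.67 ± 0.29 and 1.86 ± 0.30, also without overlap (adjusted p = 0.00669 and 0.00324). Ahnak, a very large scaffold protein, was already well expressed and rose from a pool median of 157 CPM to a Homo median of 261 (0.71 ± 0.10, adjusted p = 0.00101), with the lowest Homo mouse at 199 and the highest other mouse at 210. Arhgef28, an activator of RhoA, rose by 1.5 ± 0.22 without overlap, from a highest pool value of 2.62 CPM to a lowest Homo value of 3.47 (adjusted p = 0.0014). Epn3, an endocytic adaptor, rose by 2.27 ± 0.46 (adjusted p = 0.0219).

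Ion transport showed large changes in a few genes. Gabrp, the pi subunit of the GABA-A chloride channel (chromosome 11, 33550781 to 33578978), lay between 0 and 1.40 CPM in the pool (median 0.253), or 0 to 47 reads, and between 1.72 and 9.15 in Homo (median 5.08), or 64 to 323 reads. No mouse overlapped (3.68 ± 0.58, adjusted p = 0.00243). Ano1, a calcium-activated chloride channel of secretory epithelia (chromosome 7, 144588549 to 144752026), lay between 12.0 and 38.9 CPM in the pool (median 24.3) and between 39.6 and 102 in Homo (median 50.6), so that the groups all but met (1.35 ± 0.22, adjusted p = 0.00324). Kcne3, a potassium channel subunit that supports chloride secretion, rose by 2.11 ± 0.38 (adjusted p = 0.0102) with overlap. Of 20 tested channels and carriers these 3 were called higher and 1, Atp6v0c of chromosome 17, lower. The median of the list was 0.29, with 13 of 20 above 0. Atp10b, a phospholipid transporter outside the list, rose by 4.39 ± 0.75 (adjusted p = 0.00517) but from 0 to 12 reads per library in the pool and 4 to 74 in Homo, so its fold change rests on few reads.

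Semaphorins, a chemokine and calcium-binding proteins were also among the called genes. Sema3c and Sema5a, semaphorins that guide cell movement, rose by 1.49 ± 0.22 and 1.10 ± 0.16 (adjusted p = 0.00144 and 0.00159), and only Sema5a was free of overlap, with a highest pool value of 8.24 CPM and a lowest Homo value of 8.61. Cx3cl1, a chemokine made by epithelia, rose by 1.13 ± 0.24 (adjusted p = 0.0349) and was the 1 called of 18 tested cytokines and chemokines. S100a6, a calcium-binding protein of duct and stem cells, went from 0.349 to 1.08 CPM (median 0.801) to 1.26 to 2.83 (median 1.93) without overlap (1.39 ± 0.21, adjusted p = 0.00159). Anxa13, an annexin of epithelia, rose by 1.53 ± 0.33 (adjusted p = 0.0357), a call that ended in 12 of 19 fits with 1 mouse left out, and also once mouse number entered the fit (adjusted p = 0.1). Anxa8 was at 1.80 ± 0.40 and was not called (adjusted p = 0.0519). These 2 calls, S100a6 and Anxa13, were the only ones among 19 annexins and S100 proteins, whose median was 0.08. Jag1, the Notch ligand of duct formation, was at 0.51 ± 0.12 (adjusted p = 0.0812), and 0 of 15 Notch genes and 0 of 17 YAP and TAZ targets were called (medians 0.08 and 0.06). At an unadjusted p under 0.05 in edgeR, 6 of the 17 YAP and TAZ targets were higher and 0 lower. For the 15 Notch genes these counts were 1 and 0, and 4.87% of all tested genes were higher.

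Dividing-cell genes leaned higher, with 1 call. Mki67, whose protein is the standard stain for proliferation, was between 5.17 and 12.2 CPM in the pool (median 8.63) and between 11.2 and 17.2 in Homo (median 14.6; 0.71 ± 0.15, adjusted p = 0.0423). The groups overlapped by a narrow margin, and the call ended in 13 of the 19 fits that each left out 1 mouse. Ccnd1 (cyclin D1) was at 0.90 ± 0.20 (adjusted p = 0.055) and Top2a at 0.57 ± 0.16 (adjusted p = 0.192). Of 25 tested cell cycle genes 21 lay above 0, with a median of 0.25. The oncofetal and liver tumour list had 1 member higher, Cd24a, and 1 lower, the chromosome 17 gene Hmga1, among 16 tested. Afp and Gpc3, markers of liver cancer, were at -0.13 ± 0.23 and -0.07 ± 0.26.

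Of 40 tested interferon-stimulated genes 2 were called, against 0.425% of all tested genes. Ifi44 was between 4.53 and 8.41 CPM in the pool (median 5.77) and between 8.23 and 11.4 in Homo (median 9.70; 0.74 ± 0.12, adjusted p = 0.00448). Usp18, which removes the interferon-induced tag ISG15, rose by 0.57 ± 0.13 (adjusted p = 0.0437), a call that ended in 14 of 19 fits with 1 mouse left out. Of the 40, 36 lay above 0, against 49.9% of all tested genes, with a median of 0.21. The list summed to 911 to 1106 CPM in WT, 871 to 1179 in Het and 1008 to 1306 in Homo, so the groups overlapped. At an unadjusted p under 0.05 in edgeR, 19 of the 40 were higher, against 4.87% of all tested genes, and 0 were lower, against 4.45%. This was not particular to interferon genes. The bile duct list had 16 of 27 higher and 0 lower, and the laminin, integrin and junction list 10 of 18 higher and 1 lower. Members of a list were measured in the same mice and are not replicates. The median of Het minus WT over the interferon list was 0.02. For the called genes Het minus WT was 0.30 ± 0.13 for Ifi44 (unadjusted p = 0.0365) and 0.26 ± 0.14 for Usp18 (unadjusted p = 0.0681), which puts Het 0.34 and 0.38 of the way from WT to Homo. Neither step passed adjustment (adjusted p = 0.541 and 0.595).

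The lists that describe the steatohepatitis itself held no called gene. Among 33 fibrosis and stellate cell genes 25 lay above 0 and the median was 0.15. At an unadjusted p under 0.05 in edgeR, 7 of the 33 were higher, against 4.87% of all tested genes, and 0 were lower. Postn (periostin) came nearest, at 0.43 ± 0.12 (adjusted p = 0.167), and Col1a1 was at 0.33 ± 0.21. Outside that list, Col12a1, a collagen of dense matrix, rose by 0.80 ± 0.16 (adjusted p = 0.024), and Gas6, a ligand of TAM receptors, by 0.55 ± 0.12 (adjusted p = 0.0301), a call that ended in 7 of 19 fits with 1 mouse left out. Of 22 fatty acid and triglyceride synthesis genes 4 lay above 0, with a median of -0.24; Fasn was at -0.68 ± 0.39 and Mlxipl at -0.29 ± 0.08 (adjusted p = 0.622 and 0.21). Of 23 bile acid genes 6 lay above 0 (median -0.08), of 18 periportal hepatocyte genes 4 (median -0.17), of 23 oxidative phosphorylation genes 1 (median -0.10) and of 24 unfolded protein response genes 2 (median -0.18). Those last 2 lists and fatty acid synthesis changed sign with the mice used: within mice 14 to 20, which hold 3 Het and 4 Homo mice, the medians were 0.12 for unfolded protein response genes, 0.05 for oxidative phosphorylation and 0.32 for fatty acid synthesis. The bile duct median in the same mice was 0.53, and within mice 8 to 13, which hold 4 WT and 2 Homo mice, it was 0.86.

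Other cell types of the liver were read the same way. Medians were 0.02 for 25 macrophage and Kupffer cell genes, 0.32 for 13 T and NK cell genes, -0.03 for 13 B and plasma cell genes, -0.06 for 21 endothelial genes and -0.09 for 22 genes of hepatocyte identity, and no member of these 5 lists was called. The T and NK cell genes summed to 7.74 to 17.8 CPM in WT, 9.64 to 13.7 in Het and 10.5 to 16.3 in Homo.

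**Figure D2:**
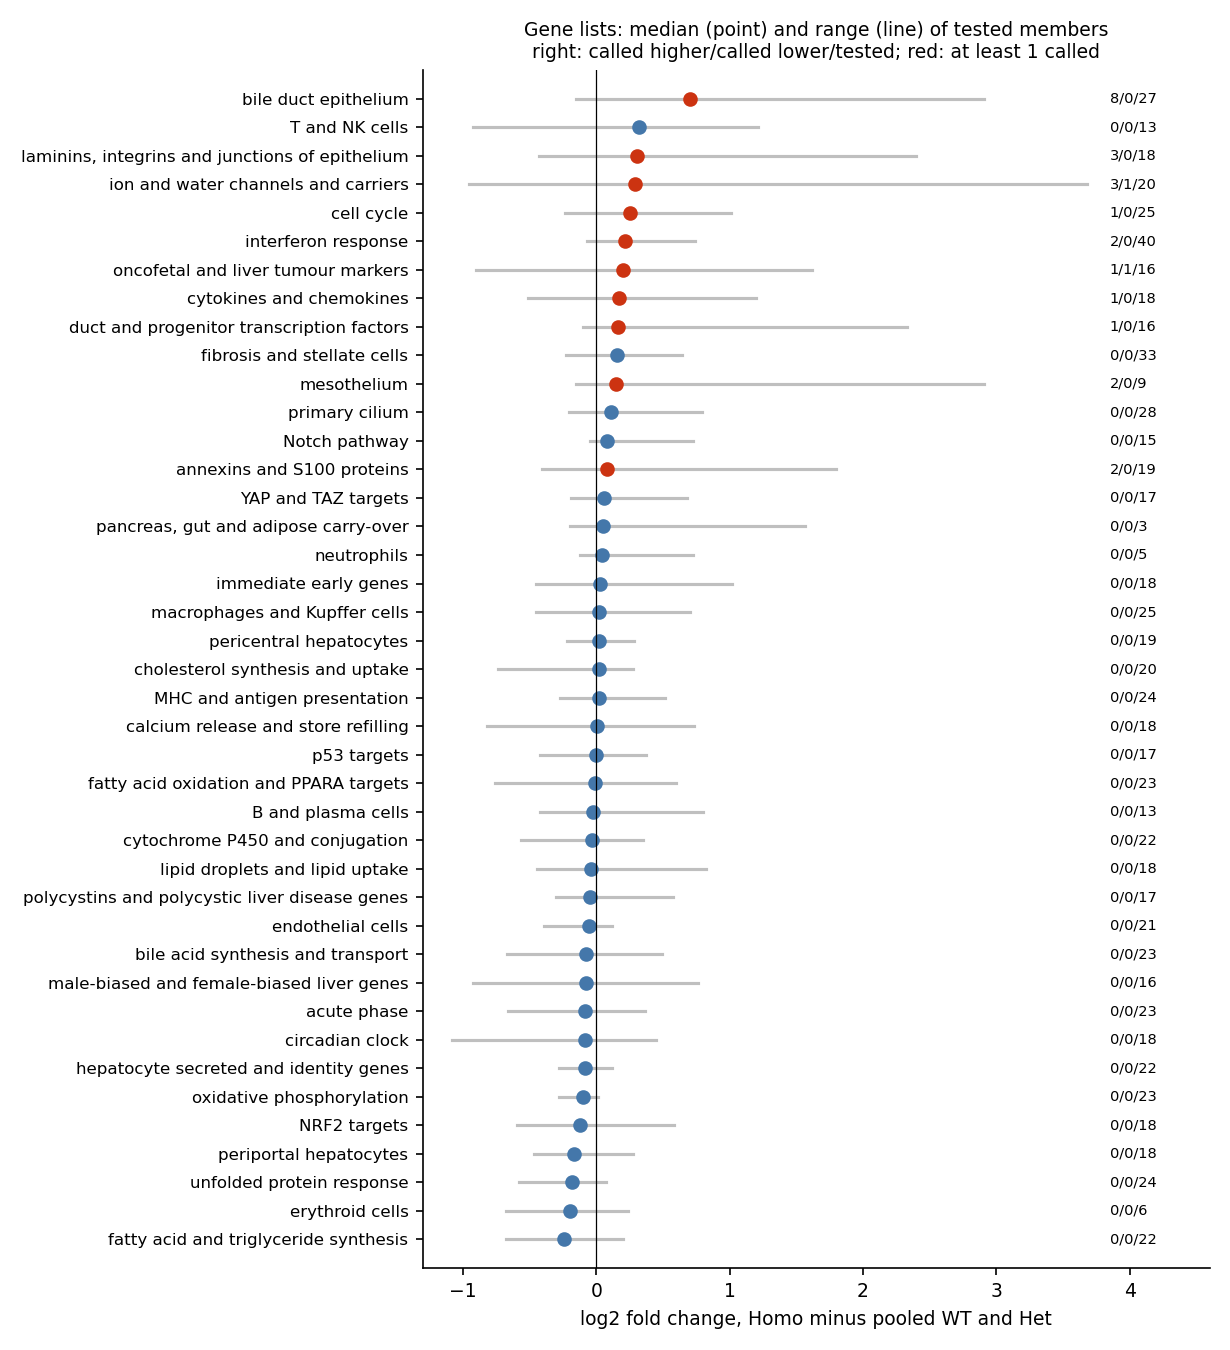
Median (point) and range (line) of the log2 fold change, Homo minus pooled WT and Het, over the tested members of 41 gene lists, with called higher, called lower and tested counts at the right. The bile duct list has the highest median, 0.70, and fatty acid synthesis the lowest, -0.24.

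The recessive model says more than that Homo differs from a pool, since a gene with equal steps per allele would differ from the pool too. In a fit with the 3 genotypes apart, Homo was therefore set against WT and against Het. All 70 genes passed both at an unadjusted p under 0.05 with the same sign, which 449 of all tested genes did (2.73%). Over all genes, Homo against WT alone called 79 (0.48%), 48 higher (0.292%) and 31 lower (0.188%), with 2121 at an unadjusted p under 0.05 (12.9%). Homo against Het alone called 30 (0.182%), 24 higher (0.146%) and 6 lower (0.0364%), with 1036 unadjusted (6.29%). Since the pooled contrast had already selected these genes, that count is a description. The place of Het between WT (0) and Homo (1) was then read for each gene. This place is not independent of the call: a large step from WT to Het widens the spread within the pool, which makes a call less likely, so the counts below are a description. Het stood under 0.25 for 54 of the 70, between 0.25 and 0.75 for 16, and over 0.75 for none. Over all tested genes, 36.4% stood under 0.25.

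Called genes on chromosome 17 and elsewhere were read apart. Of the 50 higher genes on other chromosomes 47 had Het under 0.25, and the median of Het minus WT over them was 0.01, with 26 above 0 and 24 below. The 3 exceptions were Mal, a protein of apical transport, with Ifi44 and Usp18. At an unadjusted p under 0.05, Het differed from WT in 2 of the 50: Ifi44, in the direction of Homo, and Misp, in the opposite direction (-0.76 in Het minus WT, unadjusted p = 0.0351). For single genes the intervals stay wide. For Krt7, Het minus WT was 0.32 ± 0.42, with a 95% interval from -0.55 to 1.20 that includes a doubling. For Krt19 it was -0.49 ± 0.42 (-1.36 to 0.38), for Klf5 -0.19 ± 0.41 (-1.05 to 0.67), for Gabrp -0.12 ± 0.80 (-1.79 to 1.56) and for Cdh6 0.09 ± 0.35 (-0.63 to 0.82). Bcam had a narrower interval, at 0.10 ± 0.18 (-0.27 to 0.47), against a Homo step of 1.36 from WT. None of these 6 Het steps passed a test.

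A direct test of dominance asks whether Het departs from the midpoint of WT and Homo. Over all genes, edgeR called 0 (940 at an unadjusted p under 0.05, 5.71% of tested genes), limma-voom called 0 and DESeq2 called 18. Among the 70 genes, 41 departed at an unadjusted p under 0.05, 35 of them among the 51 on other chromosomes. Het minus midpoint was -1.75 ± 0.39 for Krt19, -0.99 ± 0.22 for S100a6, -1.56 ± 0.38 for Tspan8 and -0.58 ± 0.16 for Bcam. Their unadjusted p in the edgeR fit across all genes were 0.000214, 0.000279, 0.000593 and 0.0016 in that order. None of these passed over all genes. Because the pooled contrast had picked these genes for high Homo values, and the midpoint contains the Homo mean, the departures are not independent of the call.

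**Figure D3:**
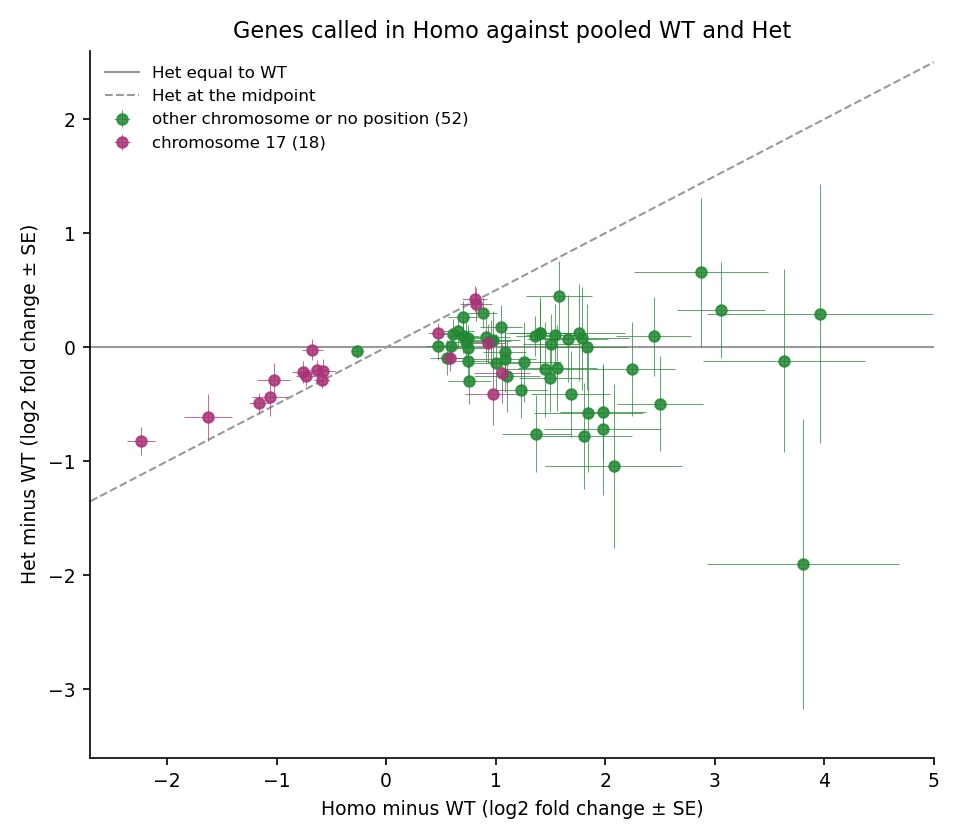
Het minus WT against Homo minus WT for the 70 called genes (log2 fold change ± SE), with lines where Het equals WT and where Het lies at the midpoint. Genes of other chromosomes and the 1 gene with no position scatter about the Het-equals-WT line, whereas the lower genes of chromosome 17 lie between the lines, nearer the midpoint, except 1 on the Het-equals-WT line.

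Chromosome 17 supplied 18 of the 69 called genes with a position, or 26.1%, while it holds 4.96% of tested genes. Within 1 Mb of Pkd1, 8 of 74 tested genes were called (10.8%), 7 of them lower. Farther along the chromosome 10 of 714 were called (1.4%), and on all other chromosomes 51 of 15087 (0.338%). Here Het did not sit at WT. Of the 11 lower genes 10 had Het between 0.25 and 0.75, 8 had an unadjusted p under 0.05 for Het minus WT, and the median of Het minus WT was -0.29.

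Single lower genes of chromosome 17 are described next, and whether they share a role was not tested. 1600002H07Rik (now Tedc2, a tubulin-related gene less than 1 Mb from Pkd1, outside the naming rule) had medians of 106 CPM in WT, 62.1 in Het and 20.9 in Homo (Homo minus pool -1.92 ± 0.21, adjusted p = 6.37e-05). Its Het mice lay between 47.4 and 74.5 CPM and overlapped neither the WT mice, from 93.4 up, nor the Homo mice, up to 32.4. Atp6v0c, the membrane ring subunit of the lysosomal proton pump, had medians of 9.95, 7.35 and 4.50 CPM (-0.95 ± 0.13, adjusted p = 0.000854), also with no overlap between any of the genotypes. Ccnf (cyclin F) had medians of 16.2, 10.2 and 5.16 CPM (-1.38 ± 0.23, adjusted p = 0.00415). Rps2, a ribosomal protein, and Gfer, a sulfhydryl oxidase of mitochondria, fell by 0.46 and 0.54 (adjusted p = 0.0127 and 0.00371), and Rnps1, which acts in splicing, by 0.62 (adjusted p = 0.00176). Their Het medians of 37.3, 25.9 and 9.70 CPM each stood between a WT median of 44.6, 29.1 and 11.7 and a Homo median of 30.8, 20.2 and 6.94.

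One lower gene of chromosome 17 broke this pattern. Gtf2h4 lies 11.1 Mb past Pkd1 and encodes part of the TFIIH complex. It was between 11.0 and 13.5 CPM in WT, between 10.8 and 13.8 in Het and between 6.51 and 9.24 in Homo. Het minus WT was -0.02 ± 0.09 (-0.21 to 0.17), and Homo minus pool was -0.66 ± 0.08 (adjusted p = 0.000238) without overlap. Its neighbour Ddr1, a collagen receptor, rose by 0.63 ± 0.10 (adjusted p = 0.00324), with Het minus WT at -0.09 ± 0.12. Of the 7 higher genes of chromosome 17, 4 had Het under 0.25 (Ezr, Ddr1, Mtcl1 and Epcam) and 3 lay between (Btbd9, H2-T24 and Meiob). The 1 lower gene of another chromosome was Abcc6, a hepatocyte export pump, which fell by 0.25 (SE 0.05, adjusted p = 0.0249) from a pool median of 233 CPM to a Homo median of 194.

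Abca3, a lipid transporter near Pkd1 named after its values were seen, shows what a recessive contrast misses. It had medians of 84.1 CPM in WT, 196 in Het and 273 in Homo, with no overlap between any of the genotypes, yet Homo against the pool gave 0.99 ± 0.24 (adjusted p = 0.0983). Het minus WT was 1.25 ± 0.08 (adjusted p = 1.6e-08). Inside the pool that contrast called 4 genes in all (0.0243% of tested genes), 3 higher (0.0182%) and 1 lower (0.00607%; 1455 at an unadjusted p under 0.05, or 8.84%; DESeq2 called 28). Higher in Het were Abca3, its neighbour D330041H03Rik and the pseudogene Atp6v0c-ps2, and lower was 1600002H07Rik. Reads of Atp6v0c-ps2 can be mistaken for those of Atp6v0c, whose level went the other way, lower in Het than in WT. Abca3 and D330041H03Rik share an exon stretch on opposite strands. Without a stated strand setting their reads cannot be told apart, so these may not be separate calls. None of the 4 was a duct gene.

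**Figure D4:**
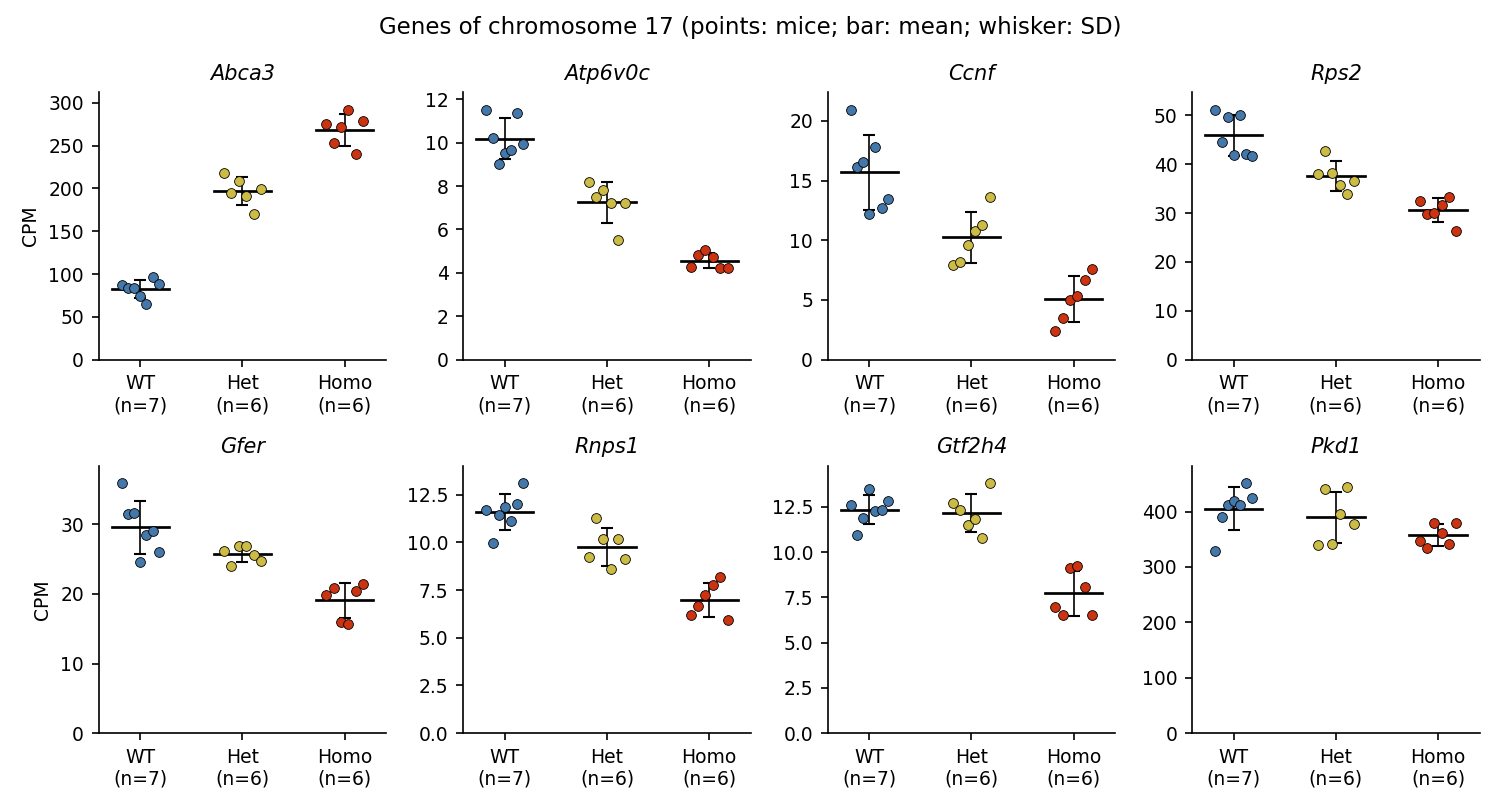
Level of 8 genes of chromosome 17 in each mouse (CPM, linear axes from 0) by genotype, with group mean and SD. Het lies between WT and Homo for Abca3, Atp6v0c, Ccnf, Rps2, Gfer and Rnps1, Gtf2h4 falls in Homo only, and Pkd1 overlaps between genotypes.

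The 2 groups of genes also differed in how even they were among the 6 Homo mice. For each mouse, the median log2 CPM minus the mean of the 13 WT and Het mice was taken over the 50 higher genes of other chromosomes. It was 1.35, 1.82 and 1.6 in Homo mice 8, 10 and 15, and 1.08, 0.85 and 0.83 in Homo mice 16, 17 and 18, while the 13 other mice lay between -0.27 and 0.20. Over the 11 lower genes of chromosome 17 the Homo mice lay between -0.80 and -0.67, the Het mice between -0.26 and -0.07 and the WT mice between 0.02 and 0.38. These medians describe genes chosen on the same mice and carry no test. Some single genes showed the same order. Krt19 was at 10.1 and 10.0 CPM in mice 10 and 15 but at 3.36 and 3.76 in mice 17 and 18. Klf5 was at 5.04 and 4.89 against 1.45 and 1.51. Others did not, such as Ifi44, at 11.4 CPM in mouse 17 against 8.23 in mouse 15, and Usp18, at 5.72 against 3.34.

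**Figure D5:**
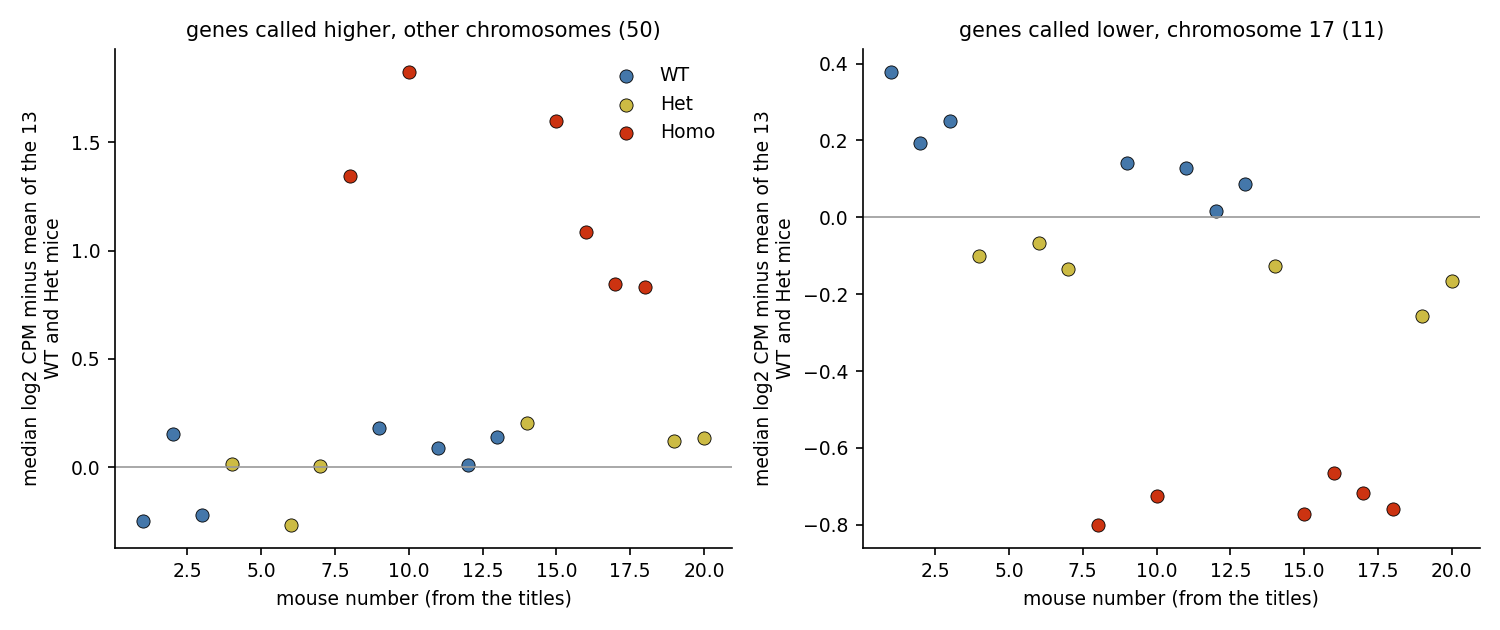
For each mouse, by its number, the median log2 CPM minus the mean of the 13 WT and Het mice over the 50 higher genes of other chromosomes (left) and the 11 lower genes of chromosome 17 (right). Homo mice spread from 0.83 to 1.82 on the left and only from -0.80 to -0.67 on the right.

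The call count leaned on mice 10 and 15, the Homo replicates 2 and 3: it was 33 without mouse 10 and 38 without mouse 15. Of the 70 genes 31 were called in each of the 19 fits that left out 1 mouse, among them Krt7, Krt19, Klf5, Cdh6, Bcam, Gabrp, Ano1, Muc1, Ezr and 8 lower genes of chromosome 17, and 39 lost the call in at least 1. Kcne3 lost it without mouse 10 alone, Epcam and Spint1 without mouse 8, 10 or 15, and Cx3cl1 in 14 of the 19 fits. Mouse number and genotype partly go together, since mice 1 to 3 are WT, mice 4, 6 and 7 Het, and no Homo mouse has a number under 8. All 70 genes kept their sign within mice 8 to 13 (66 at an unadjusted p under 0.05) and within mice 14 to 20 (59), in mice that also took part in calling them. The number of genes called there was 2 and 0. Mouse number as a covariate left 50 genes called, 43 of them among the 70. What the number stands for is not in the labels, and its part in these differences was not tested beyond these fits.

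Among the 16463 tested genes, 31 had all 6 Homo values outside the range of the 13 others (0.188%), 23 above (0.14%) and 8 below (0.0486%). The 31 became 51 without Homo mouse 17 and 47 without Homo mouse 18. Of the 70 called genes 25 did so, 17 of the 58 higher and 8 of the 12 lower. For 22 of the 66 called genes found in the GENCODE annotation, an exon stretch is shared with another gene, in 21 of them with a gene on the opposite strand, so part of their reads cannot be assigned without the strand setting.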

How the data were processed

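Liver RNA of 19 mice was sequenced, and the deposited table holds raw read counts per gene that the authors made with STAR 2.7.2b and featureCounts 1.6.4 on GRCm38, per the submitters' processing notes. For the annotation, strand setting and multi-mapping reads, nothing is stated in the sources used here. Of 35976 rows, 27 had gene symbols turned into dates; they stayed in the library totals (0.145 to 0.174% of counts) and are not reported by name. No row was found for Trbc1 and Trbc2 of the T and NK cell list. No pair of libraries was alike within sampling noise (each pair's chi-square over its degrees of freedom was 23.2 or more). The labels do not say more of the mice than genotype and treatment, so p-values measure the spread between these libraries.

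Genes were kept by filterByExpr (16463), scaled by TMM and tested with edgeR 4.0.16 (quasi-likelihood, Homo against 13 WT and Het mice) in R 4.3.3, and in a fit with 3 genotypes for Het against WT and the midpoint. P-values were adjusted over all genes by Benjamini-Hochberg. Log2 CPM used a prior count of 2. DESeq2 1.42.0 and limma 3.58.1 (voom) were alternatives, beside other filters and scaling, mouse number as a covariate, subsets of mice and leaving out each mouse. The code was tested on simulated data. Positions came from RefSeq GRCm38.p6 by symbol (15367 genes) or synonym (508), and 588 genes had none.

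The groups compared and the gene lists were chosen with earlier results of these data known. The rule for named genes took the 12 largest changes in each direction and the 10 smallest p. These came from called genes that have an official name and average 1 CPM or more in their higher group. The rule added the 3 smallest p of each list, Pkd1 and Pkd2. It would have added genes called for the midpoint, of which there were 0. The text describes those named genes that carry the groups. Names outside this rule were chosen after their values were seen: 1600002H07Rik, Abca3, Atp10b, Atp6v0c-ps2, Btbd9, Col12a1, D330041H03Rik, Ddr1, Elf4, Epcam, Ezr, Gas6, Glis2, H2-T24, Mal, Meiob, Misp, Mtcl1, Sema5a, and list members named as not called (Afp, Anxa4, Aqp1, Cftr, Col1a1, Ehf, Fasn, Gpc3, Gpm6a, Krt8, Krt18, Lrrn4, Muc16, Pkhd1, Sox9, Upk1b, Upk3b and Wt1).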

Additional observations from a re-analysis of the deposited data

Results flagged for a closer look

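In 11 of 249 groups (83 named genes, 3 genotypes) the highest or lowest mouse stood far from the rest of its genotype by Dixon's criterion, which chance meets in about 1 of 20 groups. In Het mouse 6, 4 genes were lowest: Arhgef28 at 0.828 CPM (next mouse 1.75), Bcam at 1.46 (next 1.74), Muc1 at 0.596 (next 1.11) and Upk1b at 0.166 (next 0.448). WT mouse 12 was highest for H2-T24 at 11.7 CPM (next 7.98) and D330041H03Rik at 7.25 (next 5.02), and lowest for Misp at 0.428 (next 1.05). The other 4 were Atp6v0c in Het mouse 19, lowest at 5.52 CPM (next 7.20), Btbd9 in Het mouse 4, lowest at 27.1 (next 36.4), Ezr in WT mouse 1, lowest at 2.21 (next 3.58), and Tspan8 in Het mouse 20, highest at 2.28 (next 0.757). None was a Homo mouse.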

How the results depend on the processing

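No paired analysis was possible because each mouse has its own number and no number is shared between genotypes. The 70 genes called between Homo and the pool were 158 with DESeq2 (69 shared), 111 with limma-voom (68 shared), 45 without chromosome 17, 2 within mice 8 to 13, 0 within mice 14 to 20 (874 at an unadjusted p under 0.05 by edgeR), and 20 without mice 1 to 7, a setting chosen after seeing the data (17 shared). Leaving out 1 mouse gave 33 to 79. Genes called against the pool that also passed an unadjusted p of 0.05 against WT and against Het, 70 in all, were 155 with DESeq2, 111 with limma-voom, 20 without mice 1 to 7, and 33 to 79 with 1 mouse left out. Het against WT, with 4 genes, gave 28 with DESeq2, 1 without mice 1 to 7 and 4 to 7 with 1 mouse left out, 7 being without WT mouse 12. Departures of Het from the midpoint, 0 in edgeR (940 at an unadjusted p under 0.05), were 18 with DESeq2 and 0 to 2 with 1 mouse left out. Genes without overlap, 31, were 31 to 51. The cause of these shifts was not tested, apart from fewer mice or genes in the subsets. No named gene reversed its sign in a setting where it was called there or in the main fit. Of the gene settings 529 lost a call, 36 gained one and 4695 did neither. Sign changes of genes called in neither fit were not counted, and fall among the 4695. Of 1230 list medians 15 moved, meaning by at least 1 SD of the list's mean log2 CPM among the 13 WT and Het mice. Smaller shifts could still change the sign. This occurred in up to 11 of 30 settings per list, for calcium release genes, and in 0 for the bile duct list. Duct genes at under 1 CPM in the pool rest on few reads, as with Krt7 at 3 to 21 reads per library there.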
